A study of Mus musculus with 6 samples.

Results

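The oncofetal liver genes are genes that are expressed in the fetal liver, of which most are low in the adult liver and come back in liver tumours. Albumin is the exception, since it stays on for life, and it was kept in the set as the hepatocyte gene beside which Afp is usually read. The set holds 10 of the 52550 genes listed in the deposited table, namely Afp, Alb, Dlk1, Gpc3, H19, Igf2, Igf2bp1, Igf2bp3, Lin28b and Hmga2. They were taken by gene symbol and not by their values, although the set was drawn up when results of these libraries were already known. All 10 had a TPM above 0 in each of the 6 libraries and a mean high enough for the test, so no gene of the set was lost to a filter.

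The libraries came from CD-1 mouse embryos carrying the Sox9-GFP transgene, so that cells expressing SOX9, a transcription factor of bile duct cells, carry green fluorescent protein. Livers were pooled, and blood cells carrying any of a set of lineage surface markers were depleted with magnetic beads. The GFP-positive cells were then sorted and given as cholangiocytes, the epithelial cells that line the bile ducts. E16.5 and E18.5 were sampled with 3 libraries each, called A, B and C within a stage (the sample labels give the days as E16 and E18). No other treatment or genotype was part of the comparison, and a SOX9-negative fraction was not analysed here.

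Afp and Alb are neighbouring genes that encode the main plasma proteins of the fetal and the adult liver. Dlk1 and Gpc3 encode surface proteins of hepatoblasts, the common progenitors of hepatocytes and cholangiocytes. Igf2 and H19 are reciprocally imprinted genes of one domain and are among the most abundant transcripts of fetal liver. Igf2bp1, Igf2bp3 and Lin28b encode RNA-binding proteins, Hmga2 encodes a chromatin protein, and these 4 genes are known as targets of the let-7 microRNAs, which accumulate as tissues mature. LIN28B in turn blocks the processing of let-7 precursors.

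The sequences below show the let-7 seed and its matches in the genes of the set. Of 11 mature microRNAs of the let-7 family in RefSeq (GRCm38.p6), 10 share the same seed, which is bases 2 to 8 and is printed in capitals. The exception is let-7j, whose seed differs.
mmu-let-7a-5p: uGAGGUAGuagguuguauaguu
mmu-let-7b-5p: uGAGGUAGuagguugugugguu
mmu-let-7d-5p: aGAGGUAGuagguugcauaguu
mmu-let-7g-5p: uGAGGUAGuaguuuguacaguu
mmu-miR-98-5p: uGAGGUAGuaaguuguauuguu
mmu-let-7j: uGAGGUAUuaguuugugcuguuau

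The letters CTACCTC, the reverse complement of the shared seed, were looked for in the 3′ UTR of the longest coding transcript of each gene in GENCODE vM21. Hmga2, Igf2bp1 and Lin28b each held 4 matches and Igf2bp3 held 1, whereas Afp, Alb, Dlk1, Gpc3 and Igf2 held 0, and the whole H19 transcript held 0. Of the 20965 protein-coding genes searched, 8.85% held at least 1 match and 0.0572% held 4 or more. The searched length was 3014 bases for Hmga2, 6337 for Igf2bp1, 4445 for Lin28b and 2119 for Igf2bp3. It was 201 for Afp, 169 for Alb, 359 for Gpc3, 2976 for Dlk1, 3047 for Igf2 and 2286 for H19. The median over all genes was 937 bases. Counts and shares were not matched for length, and a short 3′ UTR has less room for a match. The 13 matches of the set are given with the 23 bases before them on GRCm38, with the match in capitals. A match is a description of the letters, and binding was not measured.
Hmga2 at base 58 of the 3′ UTR (chr10:120364225-120364254, reverse strand): tagggggcgccgacattcaatttCTACCTC
Hmga2 at base 1295 of the 3′ UTR (chr10:120362988-120363017, reverse strand): gcaataatccccactcctcaataCTACCTC
Hmga2 at base 1733 of the 3′ UTR (chr10:120362550-120362579, reverse strand): tggacttcctgatttgcaaggaaCTACCTC
Hmga2 at base 2591 of the 3′ UTR (chr10:120361692-120361721, reverse strand): tgttgtacaatcaaaacacactaCTACCTC
Igf2bp1 at base 1715 of the 3′ UTR (chr11:95961779-95961808, reverse strand): caggcagtgctgtgcgaagtaaaCTACCTC
Igf2bp1 at base 4136 of the 3′ UTR (chr11:95959358-95959387, reverse strand): ctgggaaccagcagtgctattaaCTACCTC
Igf2bp1 at base 4730 of the 3′ UTR (chr11:95958764-95958793, reverse strand): tactacgagtataaatggatgaaCTACCTC
Igf2bp1 at base 5353 of the 3′ UTR (chr11:95958141-95958170, reverse strand): cctgtttcacttttggttttaatCTACCTC
Igf2bp3 at base 548 of the 3′ UTR (chr6:49086788-49086817, reverse strand): attaaacgtgcatttttactcaaCTACCTC
Lin28b at base 36 of the 3′ UTR (chr10:45381023-45381052, reverse strand): ttcccttcacccgggcgggaagtCTACCTC
Lin28b at base 2410 of the 3′ UTR (chr10:45378649-45378678, reverse strand): tacgtacatatacttgttagtaaCTACCTC
Lin28b at base 2582 of the 3′ UTR (chr10:45378477-45378506, reverse strand): aaaattctgtttacagcacatggCTACCTC
Lin28b at base 3998 of the 3′ UTR (chr10:45377061-45377090, reverse strand): cagcttggaaatgatggcaccgaCTACCTC

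Afp and Alb lie next to each other on the forward strand of chromosome 5, Alb from 90460897 to 90476602 and Afp from 90490737 to 90508907 (GRCm38, GENCODE vM21). Of the other genes, Dlk1 lies on chromosome 12 from 109452823 to 109463336, Gpc3 on X from 52272426 to 52613950, Igf2bp1 on chromosome 11 from 95957163 to 96005940 and Igf2bp3 on chromosome 6 from 49085223 to 49214957. H19, a long non-coding RNA gene, spans 142575529 to 142578143 and Igf2 spans 142650766 to 142666816, both on the reverse strand of chromosome 7. Lin28b (45376620 to 45486395) and Hmga2 (120361275 to 120476469) lie on chromosome 10. The exons of Igf2bp3 overlap those of Malsu1 on the opposite strand over 18.7% of their length, and those of H19 overlap small RNA genes over 9.15%. The strand setting of the counting was not given in the sources used here, so the levels of Igf2bp3 and H19 are less certain than those of Afp, Alb, Dlk1, Gpc3 and Lin28b, whose exons overlap no other listed gene.

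Levels are given in TPM, which here count reads per exon length of the gene and per library total. Levels of different genes can thus be compared, but such a comparison depends on the length taken for each gene. Library depth, recovered from the TPM as described under the processing, was 23193537 to 26206374 reads for the E16.5 libraries and 13093937 to 22643868 reads for the E18.5 libraries. The 12 genes of a hepatoblast list summed to between 43128 and 58058 TPM in the earlier libraries and between 11628 and 35499 TPM in the later ones, while the 10 of a cholangiocyte list summed to 694 to 2390 and then 7826 to 13553 TPM. Most of the cholangiocyte sum was 1 gene, Spp1, at 469 to 1767 TPM in the E16.5 libraries and 6629 to 12121 TPM in the E18.5 libraries. The log2 fold change of Spp1 was 3.19, and the median of the list was 1.65. All 10 cholangiocyte markers were above 0 in every library, Sox9 among them at 69.5 to 466 TPM. The libraries thus held cholangiocyte markers together with abundant hepatoblast transcripts. Markers of megakaryocytes and of endothelium were also above 0 in every library, so values above 0 do not by themselves bear out the label. E16.5 C had the lowest cholangiocyte sum and the highest hepatoblast sum, and E18.5 B the lowest hepatoblast sum, of the 6 libraries. In RNA of many cells, fewer cells of a type and less RNA per cell cannot be told apart.

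The 10 genes covered more than 4 orders of magnitude, and their order at E16.5 was Alb, Afp, H19, Igf2, Gpc3, Dlk1, Igf2bp1, Igf2bp3, Hmga2 and Lin28b. The lowest, Lin28b, had a mean above that of 55.3% of the listed protein-coding genes at E16.5 and of 43.9% at E18.5. Igf2bp1 and Igf2bp3 overlapped in their libraries and cannot be ordered, and the libraries of the other neighbours did not overlap. At E18.5 the order was the same but for H19, which had passed Afp, and for Igf2bp3, which stood beside Igf2bp1 with libraries that again overlapped. By the mean of a stage over all listed genes, Alb ranked 1 and then 2, H19 5 and then 6, Igf2 33 and then 37, and Gpc3 59 and then 72. Afp went from rank 3 to rank 13, Dlk1 from 148 to 1342 and Lin28b from 12120 to 17806. Together the 10 genes made up 15.6%, 16.4% and 19.4% of all TPM in E16.5 A, B and C and 7.84%, 4.18% and 8.77% in E18.5 A, B and C. Most of this was Alb, with 11.8% to 14.8% and then 3.002% to 7.02%.

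**Figure D1:**
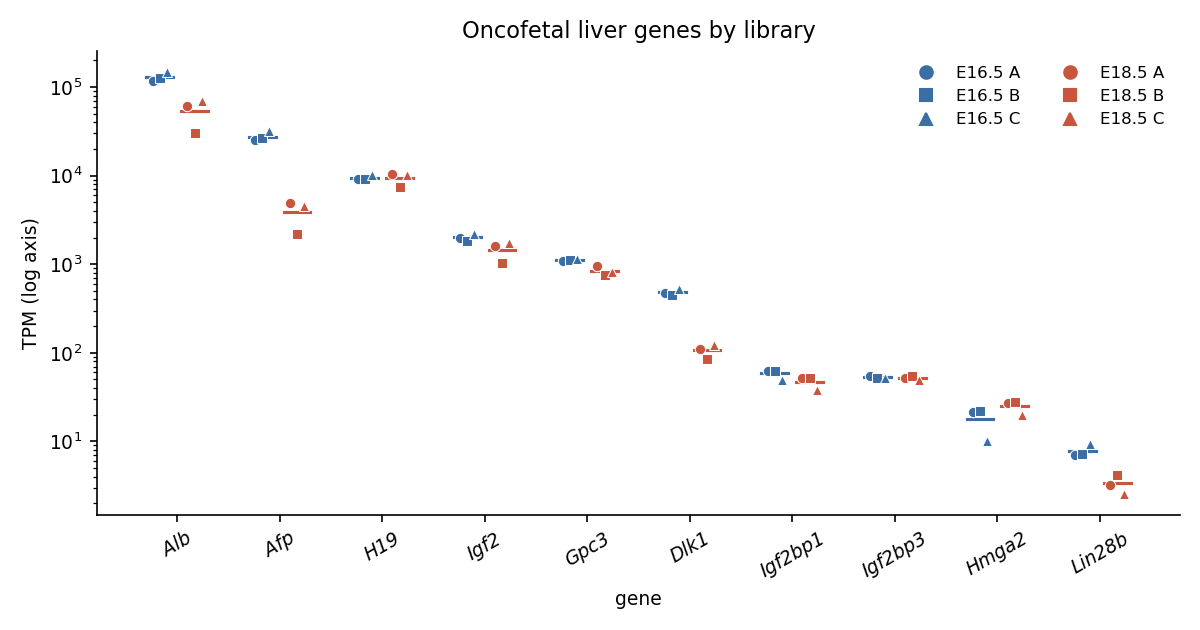
TPM of each oncofetal liver gene (log axis) in the 3 E16.5 libraries (blue) and the 3 E18.5 libraries (red), with circles, squares and triangles for A, B and C and a short line at the mean. The stages lie apart for Afp, Alb, Dlk1, Gpc3, Igf2 and Lin28b and overlap for H19, Igf2bp1, Igf2bp3 and Hmga2.

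The stages were compared with limma on log2(TPM + 1), and p-values were adjusted by Benjamini-Hochberg over the 22452 genes that entered. A gene counts as higher or lower below when its adjusted p was under 0.05. Of the 10 genes, 3 were lower at E18.5 (Afp, Dlk1 and Lin28b), 0 were higher and 7 did not pass. Over all genes tested 31.2% passed, 5.22% as lower and 26.0% as higher, so 3 of 10 is near the share of all genes, and the direction of the 3 is that of the smaller share. For 6 of the 10 there was no overlap between the libraries of both stages, all of them lower at E18.5, beside 53.3% of all genes in either direction and 8.30% lower. The median log2 fold change was -0.44 over the set and 0.42 over all genes tested, and single changes are to be read against that general shift. Median-of-ratios scaling, which sets the typical gene of each library equal, brought the median of all genes to 0.0040 and that of the set to -0.91.

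The plasma protein genes Afp and Alb both had lower libraries at E18.5, and Afp by much more. Afp, the fetal counterpart of albumin, stood at 24974, 26273 and 31450 TPM in E16.5 A, B and C and at 4857, 2214 and 4573 TPM in E18.5 A, B and C. Its lowest E16.5 library was thus far above its highest E18.5 library, and E18.5 B was the lowest of all. The mean fell 7.10-fold, from 27566 ± 3426 to 3881 ± 1451 TPM (SD, n = 3), with a log2 fold change of -2.90 and a standard error of 0.38 (limma adjusted p = 0.00852). Afp passed in each of the 17 alternative settings.

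Alb, the main carrier protein of blood plasma, stood at 117854, 124817 and 148077 TPM in E16.5 A, B and C and at 60258, 30024 and 70151 TPM in E18.5 A, B and C. The stages did not overlap, but E18.5 B lay far below E18.5 A and C, and the spread was wide. The log2 fold change of Alb was -1.37 with a 95% interval from -2.93 to 0.20 (limma adjusted p = 0.146), so a fall did not pass. The adjusted p of Alb ranged from 0.00811 to 0.937 over the 17 settings and was under 0.05 in 3 of them. The 3 were eBayes without trend, eBayes with robust estimation and voom on recovered reads. The standard error was 0.66 with the eBayes trend of the main fit and 0.34 without it, at the same log2 fold change. The missed call thus depended on how the variance was modelled.

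The ratio of Afp to Alb within a library does not depend on the factor by which libraries are scaled. At E16.5 it was 0.212, 0.210 and 0.212 in A, B and C, nearly the same value each time, although for both genes the highest of those libraries was 1.26 times the lowest. At E18.5 it was 0.0806, 0.0737 and 0.0652 in A, B and C. Put the other way, each Afp TPM was matched by 4.71 to 4.75 Alb TPM in the E16.5 libraries and by 12.4 to 15.3 in the E18.5 libraries. The ratio fell 2.90-fold (log2 difference -1.54), and the exact permutation p was 0.1, the smallest that 3 against 3 libraries can give. Relative to the summed hepatoblast list, Afp fell 3.42-fold with no overlap between the stages (exact permutation p = 0.1), while Alb changed 1.18-fold with overlap (exact permutation p = 0.2). In these libraries Afp thus fell beyond both its neighbour and the hepatoblast list, with no overlap in either ratio. A permutation p under 0.05 was out of reach with 3 against 3 libraries.

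**Figure D2:**
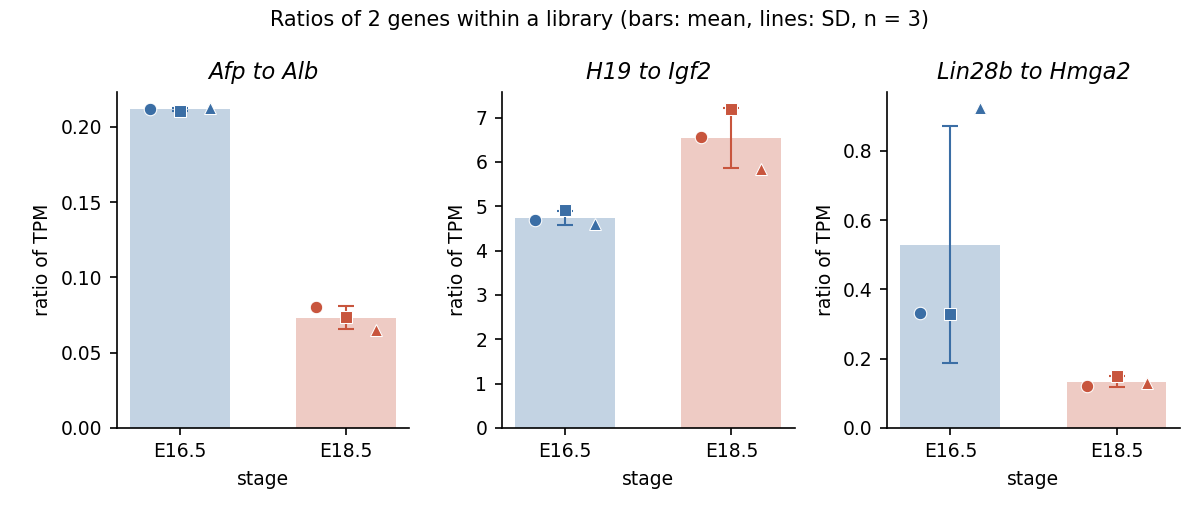
Ratio of the TPM of 2 genes within each library, for Afp to Alb, H19 to Igf2 and Lin28b to Hmga2, with bars for the mean, lines for the SD (n = 3) and circles, squares and triangles for A, B and C. The Afp to Alb ratio sits near 0.21 in all E16.5 libraries and below 0.081 in all E18.5 libraries.

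The coding sequences of Afp and Alb match at 57.9% of aligned bases, and their longest shared run is 13 bases, and the share of reads that fit both was not measured. Of the other albumin family genes, which lie on the same chromosome in the mouse, Afm (afamin) had 288 ± 21.1 and 238 ± 36.1 TPM and Gc (the vitamin D binding protein) 7239 ± 925 and 7280 ± 1060 TPM (SD, n = 3). Neither passed, with log2 fold changes of -0.28 for Afm (limma adjusted p = 0.156) and 0.0059 for Gc (limma adjusted p = 0.987), and the sign of Gc turned under some scalings. With TPM as deposited Afp was the one gene of this family that was called. Afm was called lower under median-of-ratios scaling (-0.75, limma adjusted p = 0.0229) and with voom on recovered reads (-0.41, limma adjusted p = 0.0390).

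Of 12 transcription factor genes listed for their part in Afp and Alb control, 6 were higher at E18.5, 1 was lower and 5 did not pass, with a median of 0.52. Zbtb20 and Zhx2 encode known postnatal repressors of Afp. Zbtb20 stood at 52.5, 59.3 and 33.0 TPM in E16.5 A, B and C and at 142, 163 and 134 TPM in E18.5 A, B and C, with no overlap. Its log2 fold change was 1.62 with a standard error of 0.22 (limma adjusted p = 0.00890), and it passed in each of the 17 settings. Zhx2 went from 18.1 ± 6.32 to 37.8 ± 5.30 TPM (SD, n = 3), a log2 fold change of 1.07 (limma adjusted p = 0.0267), and lost its call under median-of-ratios scaling and without any one of E16.5 A, E18.5 A and E18.5 B. Foxa2 (1.04, limma adjusted p = 0.0139) and Zhx3 (0.86, limma adjusted p = 0.0105) were also higher, though Foxa2 did not pass without E18.5 A. Hnf4a was lower at -0.62 (limma adjusted p = 0.0330), and with a library left out it passed only in the fit without E18.5 C. With median-of-ratios scaling the median of the 12 genes was 0.067.

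Dlk1, whose protein is a membrane relative of the Notch ligands, had the clearest fall of the set by its error. It stood at 468, 449 and 521 TPM in E16.5 A, B and C and at 111, 86.1 and 123 TPM in E18.5 A, B and C. All E18.5 libraries were below 1 in 3 of the lowest E16.5 library. The mean fell 4.49-fold, from 479 ± 37.0 to 107 ± 18.8 TPM (SD, n = 3), and the log2 fold change was -2.17 with a standard error of 0.15 (limma adjusted p = 0.00398), and Dlk1 passed in each of the 17 settings. Relative to Alb it fell 1.76-fold and relative to the hepatoblast list 2.07-fold, with no overlap in either (exact permutation p = 0.1).

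Gpc3, a heparan sulfate proteoglycan of the cell surface, changed little in comparison. It stood at 1089, 1104 and 1135 TPM in E16.5 A, B and C and at 965, 761 and 818 TPM in E18.5 A, B and C, so its stages did not overlap. The log2 fold change of Gpc3 was -0.39 with a 95% interval from -0.72 to -0.065, and it did not pass (limma adjusted p = 0.0675). Under median-of-ratios scaling it was -0.86 and passed (limma adjusted p = 0.0275, between 0.00934 and 0.361 in the 17 settings). The ratio of Gpc3 to Alb was 1.96-fold larger at E18.5 with no overlap (exact permutation p = 0.1), and that of Gpc3 to the summed hepatoblast list was 1.66-fold larger with overlap (exact permutation p = 0.3). Of the other glypican genes, 4 of 5 were tested, and 2 were higher, Gpc4 at 1.60 (limma adjusted p = 0.0175) and Gpc6 at 0.89 (limma adjusted p = 0.0133). Both lost the call without E18.5 A, Gpc4 also without E18.5 B, and Gpc6 also under median-of-ratios scaling.

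Igf2, a fetal growth factor made from the paternal allele, stood at 1970, 1841 and 2198 TPM in E16.5 A, B and C and at 1596, 1044 and 1740 TPM in E18.5 A, B and C. The stages did not overlap, and E18.5 B was the lowest. The log2 fold change of Igf2 was -0.49 with a 95% interval from -1.02 to 0.044, and it did not pass (limma adjusted p = 0.131), although it did with voom on the recovered reads (limma adjusted p = 0.0350). H19, the maternally expressed non-coding RNA of the same domain, stood at 9226, 9028 and 10102 TPM in E16.5 A, B and C and at 10481, 7518 and 10177 TPM in E18.5 A, B and C. Its stages overlapped fully, and its log2 fold change was -0.023 with an interval from -0.66 to 0.61 (limma adjusted p = 0.953).

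Within each library H19 was the more abundant of the pair, at 4.68, 4.91 and 4.60 times Igf2 in E16.5 A, B and C and at 6.57, 7.20 and 5.85 times in E18.5 A, B and C. The ratio of H19 to Igf2 was 1.38-fold higher at E18.5 with no overlap (exact permutation p = 0.1). Igf2os, an antisense transcript of Igf2, went from 12.6 ± 1.51 to 8.08 ± 1.40 TPM (SD, n = 3), a log2 fold change of -0.59 (limma adjusted p = 0.0487), and lost its call in each of the 6 fits that leave out a library. Ins2, the insulin gene beside Igf2, had 0 to 12.4 TPM and was not called.

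Dlk1 lies at one end of an imprinted domain on chromosome 12 whose maternal allele gives the non-coding RNAs Meg3, Rian and Mirg and whose paternal allele gives Dlk1, Rtl1 and Dio3. Rtl1, Meg3, Rian and Mirg were all lower at E18.5, and Dio3 was too low to be tested. Mirg stood at 74.6, 69.7 and 78.8 TPM in E16.5 A, B and C and at 28.1, 24.0 and 25.8 TPM in E18.5 A, B and C, a log2 fold change of -1.48 with a standard error of 0.12 (limma adjusted p = 0.00424). The change was -1.45 for Rtl1 (limma adjusted p = 0.00779), -1.22 for Rian (limma adjusted p = 0.00735) and -0.74 for Meg3 (limma adjusted p = 0.0151). Each of these 4 transcripts had no overlap between the stages and passed in all 17 settings, and expression by allele was not measured. Of the 12 genes listed as imprinted neighbours of Dlk1 and Igf2, 10 were tested, 6 were lower and 0 were higher, with a median of -0.67. The other gene called beside Igf2os was Phlda2, at -0.91 (limma adjusted p = 0.0288), which encodes a growth-restraining protein, and it lost the call without any one of E16.5 A, E16.5 C, E18.5 A and E18.5 B.

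The genes of the IGF axis around Igf2 encode its receptors, a second ligand and the binding proteins. Of 12 genes listed, 4 were higher at E18.5 and 0 were lower, with a median of 0.43 beside 0.42 over all genes tested, of which 26.0% were called higher. The 4 were the binding protein genes Igfbp5 (2.41, limma adjusted p = 0.0187) and Igfbp3 (1.94, limma adjusted p = 0.0183), the ligand gene Igf1 (1.93, limma adjusted p = 0.0105) and the receptor gene Igf1r (1.28, limma adjusted p = 0.0106). Igf1r stood between 56.6 and 89.8 TPM in the E16.5 libraries and between 165 and 209 TPM in the E18.5 libraries. Igfbp5 lost its call without E18.5 A or E18.5 B, and Igfbp3 under median-of-ratios scaling. Igf2r, the receptor that clears IGF2 from the cell surface, had 421 ± 25.1 and 399 ± 43.8 TPM (SD, n = 3) and was not called, but it was called lower under median-of-ratios scaling (-0.55, limma adjusted p = 0.0196). Mesenchymal cells are a known source of some of these binding proteins. Of 10 mesenchyme markers 3 were higher, their sum lay between 117 and 268 TPM in the earlier libraries and between 261 and 731 TPM in the later ones, and their part was not tested.

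**Figure D3:**
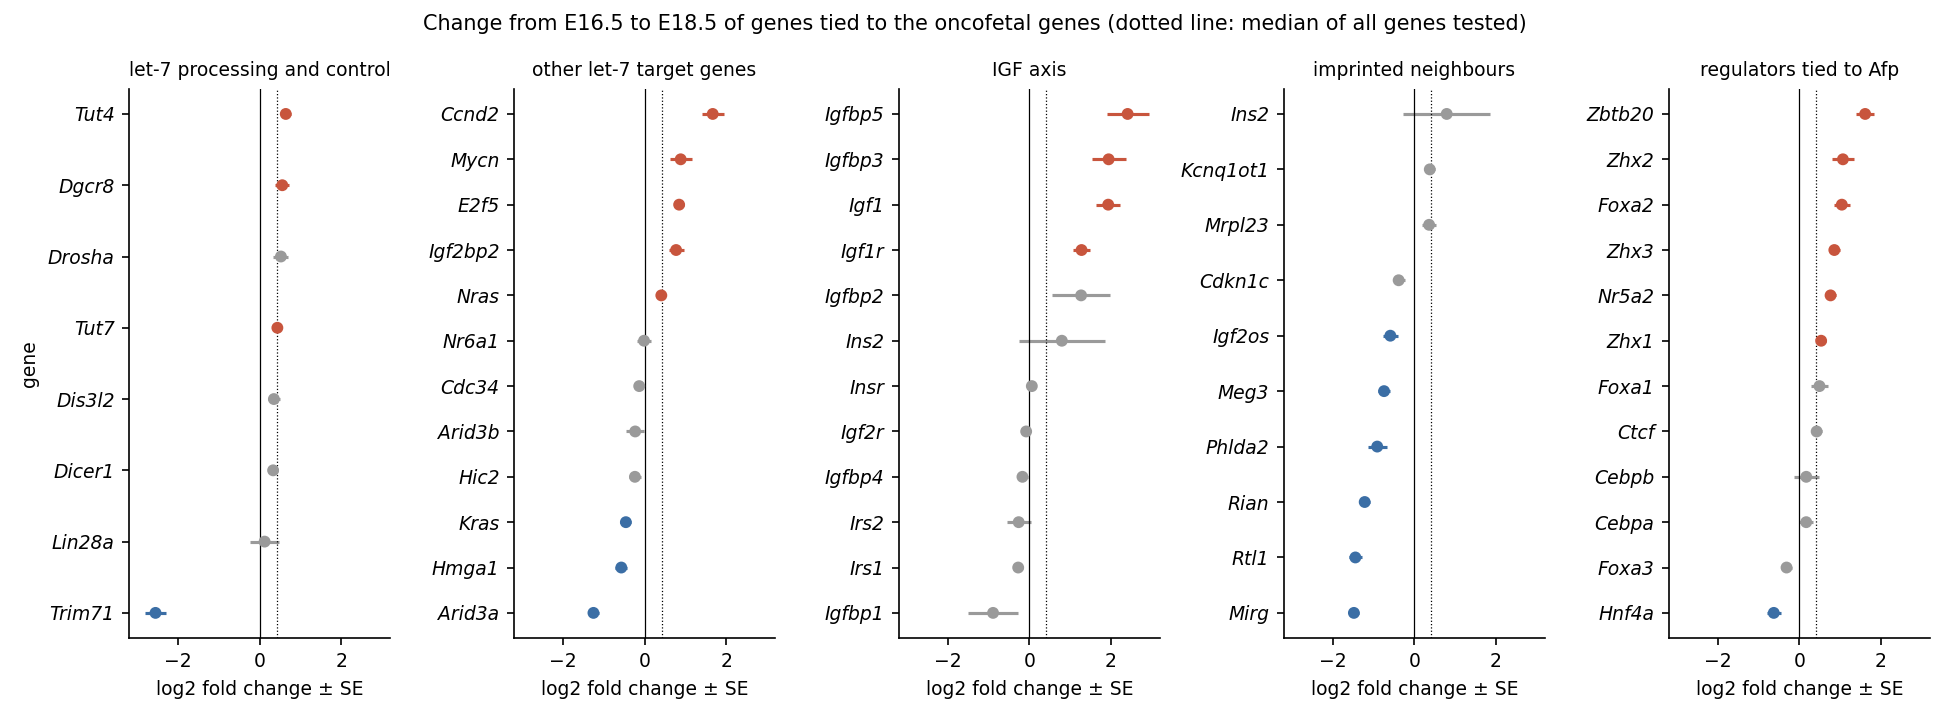
Log2 fold change from E16.5 to E18.5 (points, with the standard error as a line) of the tested genes of 5 lists tied to the oncofetal genes, with red for genes called higher, blue for genes called lower and grey for genes not called, and a dotted line at the median of all genes tested (0.42). Trim71 and the Dlk1 domain genes Mirg, Rtl1, Rian and Meg3 lie on the lower side, and 6 of the 12 genes tied to Afp are called on the higher side.

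Of the RNA-binding protein genes of the set, only Lin28b was called with TPM as deposited. Lin28b, Igf2bp1 and Igf2bp3 were all called lower under median-of-ratios scaling and quantile normalization. Lin28b stood at 7.08, 7.27 and 9.31 TPM in E16.5 A, B and C and at 3.24, 4.23 and 2.58 TPM in E18.5 A, B and C. These values rest on 514 to 673 reads at E16.5 and on 95 to 201 reads at E18.5, and for the shallowest, E18.5 C, the exact 95% interval by Clopper-Pearson was 2.09 to 3.15 TPM, which covers counting error only. The highest E18.5 library lay below the lowest E16.5 library. The mean fell 2.35-fold, and the log2 fold change was -1.04 with a standard error of 0.23 (limma adjusted p = 0.0200). The call of Lin28b was lost without E16.5 C and without E18.5 A, with log2 fold changes between -1.18 and -0.91 over the 6 fits that leave out a library. Relative to the hepatoblast list, Lin28b changed 1.09-fold with overlap (exact permutation p = 0.8).

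Igf2bp1, which binds and stabilises fetal messenger RNAs, stood at 62.8, 62.8 and 49.7 TPM in E16.5 A, B and C and at 51.5, 51.9 and 38.4 TPM in E18.5 A, B and C. In each stage C was the lowest, and the stages overlapped. The log2 fold change of Igf2bp1 was -0.31 with an interval from -0.69 to 0.083 (limma adjusted p = 0.183). Igf2bp3, its paralogue, stood at 54.5, 52.4 and 51.4 TPM in E16.5 A, B and C and at 52.2, 54.3 and 49.1 TPM in E18.5 A, B and C. The stages overlapped, with a log2 fold change of -0.025 and an interval from -0.27 to 0.22 (limma adjusted p = 0.861). Against the shift of all genes both were lower, since median-of-ratios scaling gave -0.76 for Igf2bp1 (limma adjusted p = 0.0136, range 0.0136 to 0.412 over the settings) and -0.48 for Igf2bp3 (limma adjusted p = 0.0204, range 0.0204 to 0.993). Their coding sequences match at 69.8% of aligned bases with a longest shared run of 20 bases. The third gene of the family, Igf2bp2, was higher at E18.5, from 34.0 ± 7.47 to 58.0 ± 4.88 TPM (SD, n = 3; log2 fold change 0.77, limma adjusted p = 0.0232), and lost its call under median-of-ratios scaling and without E18.5 A or E18.5 B.

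Hmga2, a chromatin protein of embryonic growth, was the only gene of the set with a higher mean at E18.5. It stood at 21.4, 22.02 and 10.1 TPM in E16.5 A, B and C and at 27.0, 28.2 and 19.7 TPM in E18.5 A, B and C. E16.5 C was low, and the other E16.5 libraries overlapped with E18.5 C. The log2 fold change of Hmga2 was 0.52 with an interval from -0.20 to 1.25 (limma adjusted p = 0.214), and it was 0.18 without E16.5 C and 0.081 under median-of-ratios scaling. The low library is also the one with the lowest cholangiocyte sum, at 694 TPM beside 1885 and 2390 TPM in A and B, and the part of that in the result was not tested. Hmga1, its relative, was lower at -0.57 (limma adjusted p = 0.0270) and lost the call without any one of E16.5 A, E16.5 C, E18.5 A and E18.5 C.

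Lin28b and Hmga2 hold 4 let-7 seed matches each. The ratio of Lin28b to Hmga2 was 0.331, 0.330 and 0.924 in E16.5 A, B and C and 0.120, 0.150 and 0.131 in E18.5 A, B and C. E16.5 C stood apart from the other libraries of its stage, the stages did not overlap, and this ratio was chosen after its values had been seen and is given with no test. The 4 genes with seed matches had log2 fold changes from -1.04 to 0.52 and the 6 without from -2.90 to -0.023, so the ranges overlapped and the larger falls were among the genes with 0 matches. In all, 17 ratios within libraries were computed, of which 15 were tested and 11 of those had no overlap. Their exact permutation p of 0.1, the smallest possible, became 0.136 after Benjamini-Hochberg adjustment over the 15 and 0.142 over all 17.

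**Figure D4:**
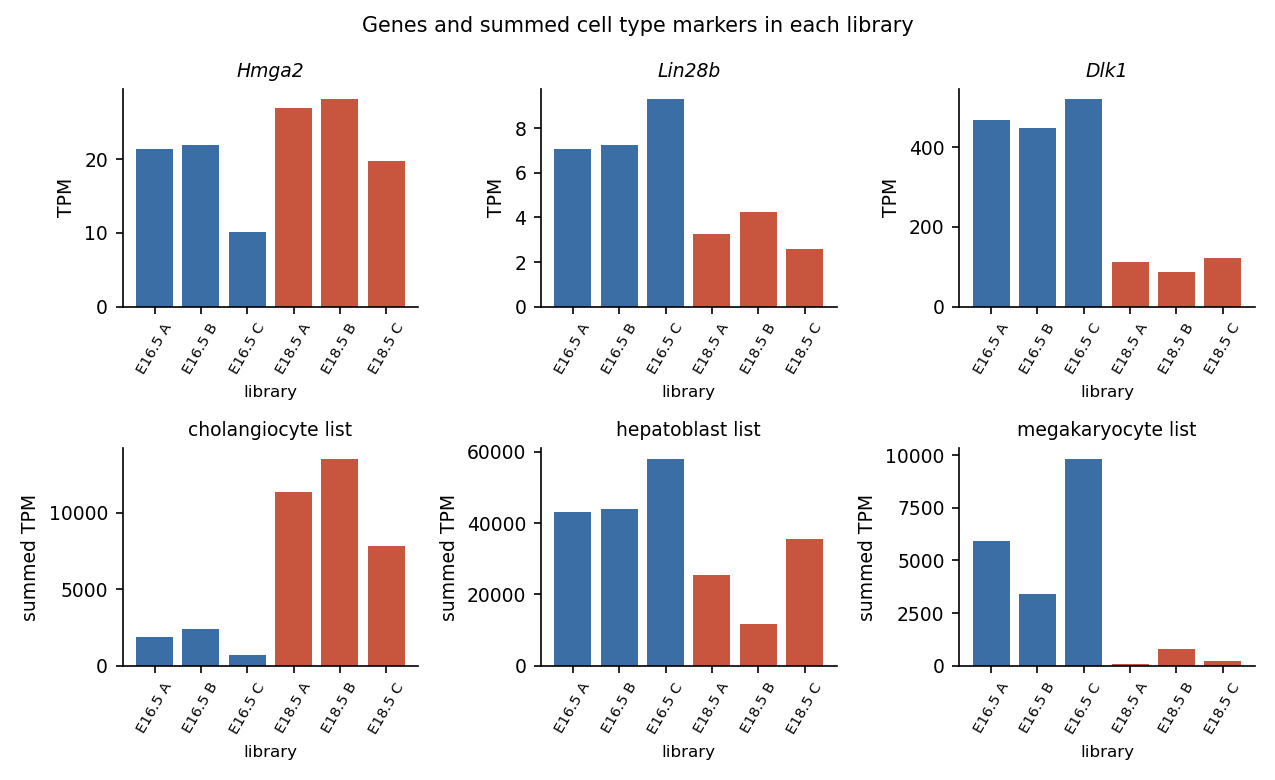
TPM of Hmga2, Lin28b and Dlk1 (upper row) and summed TPM of the cholangiocyte, hepatoblast and megakaryocyte marker lists (lower row) in each library, blue for E16.5 and red for E18.5. In E16.5 C, Hmga2 and the cholangiocyte sum are lowest among the E16.5 libraries, and Lin28b, Dlk1 and the hepatoblast and megakaryocyte sums are highest. Most of the cholangiocyte sum is Spp1.

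The genes of the let-7 pathway gave a mixed picture. Of 8 genes for the processing and control of let-7, 3 were higher, 1 was lower and 4 did not pass, and the median of 0.39 lay beside the 0.42 of all genes and was -0.058 under median-of-ratios scaling. The one that was lower was Trim71, a stem cell gene that is a known let-7 target and whose 3′ UTR held 4 matches. It stood at 13.02, 11.1 and 11.6 TPM in E16.5 A, B and C and at 1.88, 0.839 and 0.976 TPM in E18.5 A, B and C, with no overlap. Its log2 fold change was -2.56 with a standard error of 0.25 (limma adjusted p = 0.00621), and it passed in each of the 17 settings. Lin28a, the paralogue of Lin28b, had 5.12 ± 1.45 and 5.86 ± 2.61 TPM (SD, n = 3) and was not called (0.12, limma adjusted p = 0.803), with a sign that turned under some scalings. Tut4 and Tut7, which encode enzymes that tag let-7 precursors with uridine, had 0.64 (limma adjusted p = 0.0153) and 0.43 (limma adjusted p = 0.0352), and both lost the call under median-of-ratios scaling, where Tut7 was at -0.023. Tut4 also lost it without E18.5 A, and Tut7 kept it only without E16.5 C among the fits that leave out a library. The third gene that was higher was Dgcr8, whose protein works with Drosha on primary microRNAs, at 0.55 (limma adjusted p = 0.0479), and it lost the call in 11 of its 16 settings, all 6 that leave out a library included.

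Of 12 other known let-7 target genes, 5 were higher, 3 were lower and 4 did not pass, with a median of -0.074. Ccnd2, a G1 cyclin gene, went from 66.8 ± 22.8 to 207 ± 31.4 TPM (SD, n = 3; log2 fold change 1.67, limma adjusted p = 0.0112). E2f5 (0.85, limma adjusted p = 0.0103) and Mycn (0.88, limma adjusted p = 0.0470) were also higher, and Arid3a was lower, from 60.8 ± 6.85 to 24.8 ± 1.42 TPM (SD, n = 3; log2 fold change -1.25, limma adjusted p = 0.00697). Mycn lost its call in each of the 6 fits that leave out a library, and Ccnd2, E2f5 and Arid3a passed in each of the 17 settings. Mature let-7 was not measured here.

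The protein-coding genes whose pattern over the 6 libraries lay closest to each gene of the set were looked up among 11374 genes whose mean was 5 TPM or more, by the root mean square difference of log2(TPM + 1) after centring each gene on its mean. For Alb they were Cldn1 (0.026), Apob (0.080) and Itih1 (0.099), of which Apob and Itih1 encode plasma proteins made by hepatocytes. Afp had no gene as close, with Apom (0.27), Ugt2b36 (0.28) and Adra1b (0.28) the nearest. Those of Dlk1 were Ces1e (0.12), Fkbp11 (0.13) and C8g (0.14), and those of Lin28b were Tpst2 (0.096), Ostc (0.10) and Psph (0.10). Hmga2 lay nearest to Rnpep (0.061), Igf2 to Enpp2 (0.033), Gpc3 to Sod1 (0.031), H19 to Etfdh (0.050), Igf2bp1 to Reep4 (0.055) and Igf2bp3 to Slc39a9 (0.021). With 6 libraries in 2 stages many genes share a pattern, and these are descriptions with no test.

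**Figure D5:**
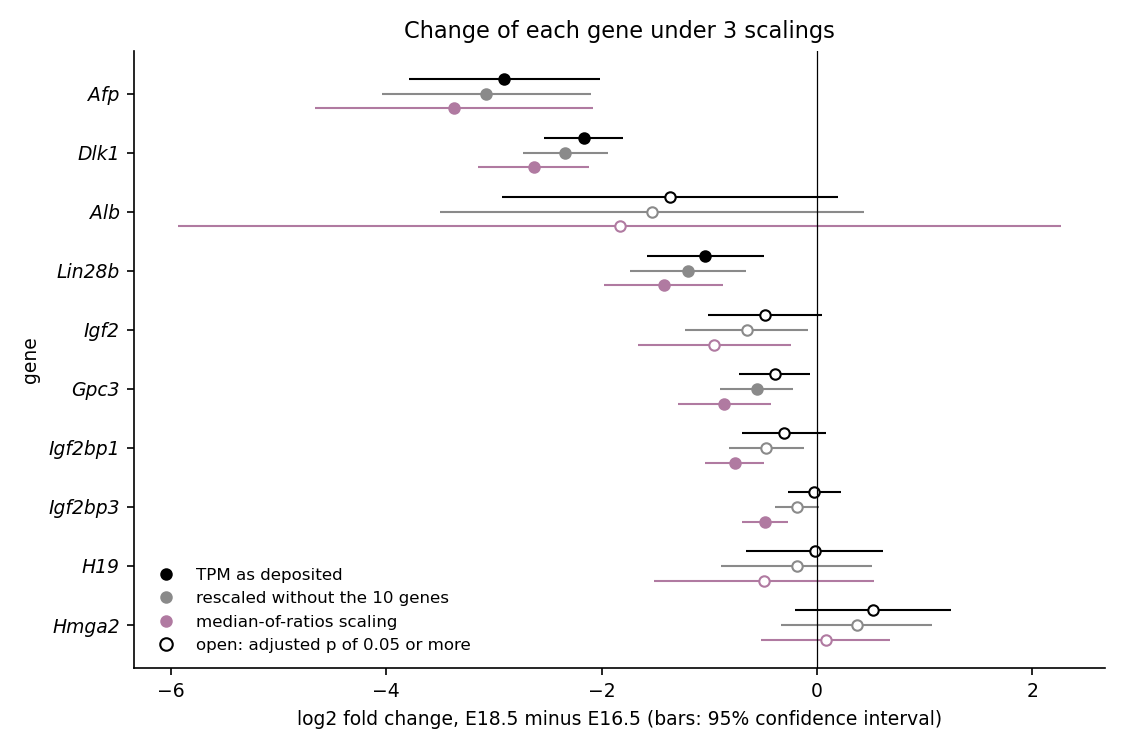
Log2 fold change of each oncofetal liver gene from E16.5 to E18.5 with its 95% confidence interval, for TPM as deposited (black), TPM rescaled without the 10 genes (grey) and median-of-ratios scaling (purple), with filled points for an adjusted p under 0.05. Afp, Dlk1 and Lin28b are filled under all 3 scalings, at -2.90, -2.17 and -1.04 with TPM as deposited.

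The fall of the 10 genes as a share of all TPM bears on every other value, because TPM of one library sum to a fixed total. When the TPM were rescaled without the 10 genes, the median log2 fold change of all genes went from 0.42 to 0.27 and the number of genes called from 7000 to 4854. Afp, Dlk1, Lin28b and Gpc3 were called lower on that scale, and 0 of the set higher. Under median-of-ratios scaling 6 of the 10 were called lower (Afp, Dlk1, Gpc3, Igf2bp1, Igf2bp3 and Lin28b) and 0 higher. The summed hepatoblast list itself went from between 43128 and 58058 TPM in the E16.5 libraries to between 11628 and 35499 TPM in the E18.5 libraries. The ratio to that sum was larger at E18.5 for H19 (2.15-fold), Igf2bp3 (2.15-fold), Igf2 (1.56-fold) and Hmga2 (3.21-fold) and smaller for Afp and Dlk1, each with no overlap between the stages (exact permutation p = 0.1, and 0.136 after adjustment). None of H19, Igf2bp3, Igf2 and Hmga2 passed on its own TPM. The larger ratios thus do not by themselves show a rise of these genes. With TPM as deposited the log2 fold change was 0.52 for Hmga2 and below 0 for H19, Igf2bp3 and Igf2. A rise was not excluded either. The confidence intervals of the log2 fold changes reached 0.61 for H19, 0.22 for Igf2bp3, 0.044 for Igf2 and 1.25 for Hmga2.

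Transcripts of other cell types moved with the stage as well. All 10 megakaryocyte markers were lower at E18.5, their sum lay between 3401 and 9833 TPM in the earlier libraries and between 99.9 and 784 TPM in the later ones, and none was at 0 in any library. Of 12 hepatoblast markers 5 were lower and 0 higher, and of 10 cholangiocyte markers 8 were higher and 0 lower. The endothelial and proliferation lists had 0 genes called in either direction, the erythroid list had 1 lower, the blood progenitor list 2 lower, the pancreas list 2 lower and the leukocyte list 3 higher. The summed pancreas list was 2334 TPM in E16.5 A, far above the 224 and 68.9 TPM of E16.5 B and C, and it was 40.1, 84.7 and 14.5 TPM in E18.5 A, B and C. The 6 mesothelial markers were all higher, with a sum of 4.56 to 12.6 TPM before and of 47.2 to 98.4 TPM after. Of 12 genes that hepatocytes turn on around birth, 1 was higher and 1 lower. The part of these cells in the levels of the 10 genes was not tested.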

How the data were processed

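RNA was sequenced from GFP-positive liver cells of Sox9-GFP embryos, with 3 libraries per stage grouped by the developmental stage and letter in the sample labels. According to the methods and processing notes, the authors checked reads with FastQC 0.11.7, trimmed them, aligned them to GRCm38 with HISAT2 2.1.0, counted them per gene with HTSeq 0.5.4p3 on GENCODE vM15 and deposited TPM. Each library sums to 1000000 TPM, and mitochondrial genes are listed at 0. Gene names, places and lengths came from GENCODE vM21, which holds 52403 of the 52550 identifiers.

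To recover reads, each TPM was multiplied by exon length and scaled by what 1 read adds. This gave whole numbers (within 0.01) for 100% of 180057 values, and not for H19, whose identifier has another version in vM21. They served for depth, intervals and limma voom. Libraries of one stage differed by a chi-square of at least 15.1 per degree of freedom, so none was a copy.

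log2(TPM + 1) of the 22452 genes whose mean was 1 TPM or more was tested with limma 3.58.1 in R 4.3.3 (eBayes with trend, Benjamini-Hochberg), with stage as the only term. Exact two-sided permutation tests were run in Python 3.11.15 with scipy 1.17.1. The methods describe pooled livers but not whether each library had a pool of its own, so p-values measure only the spread between these libraries, which may be technical. The 10 genes and all gene lists were chosen with earlier results of these data known. Named genes are the 10, at most 4 called genes with the largest change from each pathway list, and 13 genes named whatever they did. Marker lists are given by counts and sums, and Spp1 is named for its part in the cholangiocyte sum. Results for some genes are left out of the lists and are not reported here. Alternatives were a pseudocount of 0.1 TPM, other filters, other scalings, other eBayes settings, voom, the replicate letter as a block and each library left out.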

Additional observations from a re-analysis of the deposited data

How the results depend on the processing

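The number of genes called was 7000, and it was 4282 without a filter on low values (more genes entered the adjustment), 3818 with median-of-ratios scaling, 3796 with quantile normalization and 1472 (without E18.5 A) to 5686 (without E18.5 C) with 1 library left out. The share of calls that were higher at E18.5 was 83.3%, against 38.0% with median-of-ratios scaling and 50.5% with quantile normalization, and 2597 and 3053 of the calls were shared. The number of the 10 genes called was 3, and it was 6 with median-of-ratios scaling, 5 with quantile normalization, 7 with voom on recovered reads (H19 could not be fitted there) and 2 to 3 with 1 library left out; the cause of these shifts was not tested. Afp, Dlk1 and Lin28b were called in all 17 alternatives, but for Lin28b without E16.5 C and without E18.5 A. The log2 ratio of Afp to Alb kept its sign with a pseudocount of 1 TPM and with each library left out; it was not computed after quantile normalization, which can change a ratio within a library.

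The sign of H19 turned to 0.49 with quantile normalization and to 0.026 and 0.13 without E16.5 C and E18.5 B, and that of Igf2bp3 to 0.013 and of Igf2r to 0.010 without E18.5 C. Lin28a turned to -0.27 with median-of-ratios scaling, -0.32 with quantile normalization, -0.020 when rescaled without the 10 genes, and -0.094 and -0.15 without E16.5 C and E18.5 A. Gc turned to -0.46 with median-of-ratios scaling, -0.16 when rescaled without the 10 genes, -0.13 with voom, and -0.061, -0.030 and -0.11 without E16.5 A, E16.5 C and E18.5 A. Tut7 turned to -0.023 with median-of-ratios scaling. None of these passed. With 1 library left out, H19 lay between -0.11 and 0.13, Igf2bp3 between -0.059 and 0.013, Igf2r between -0.14 and 0.010, Lin28a between -0.15 and 0.44 and Gc between -0.11 and 0.11. Of the 33 other named genes, 16 lost their call somewhere and 12 were called throughout.

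Libraries with the same letter were not paired by the design, and the deviations of A, B and C from their stage means correlated at -0.042, 0.081 and 0.14 between the stages. With the letter as a replicate block 7314 genes and the same 3 of the 10 were called. The levels of Lin28b at E18.5 rested on at most 201 reads, and no test on TPM of 3 against 3 libraries can go below a permutation p of 0.1.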
